A study of Danio rerio with 6 samples.

Results

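Of 32253 features in the zebrafish germline expression table, 4 were chosen by Ensembl gene ID, with no threshold on their values. Earlier results of these data were known when they were chosen. Their IDs are ENSDARG00000014373, ENSDARG00000036214, ENSDARG00000068255 and ENSDARG00000045139. The set was drawn up as the germ plasm genes ddx4, dazl, nanos3 and dnd1. The reference table of gene names pairs the first 3 IDs with DDX4, DAZL and NANOS3, but it pairs ENSDARG00000045139 with CA7, a carbonic anhydrase, and gives DND1 under ENSDARG00000022813. The row ENSDARG00000045139 is therefore called ca7 here, and the row ENSDARG00000022813 was added as dnd1, after its values were seen, so that 5 genes are described. The added row is not one of the 4 chosen by ID.

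Adult TLAB zebrafish, a wild-type strain, gave all libraries, and the labels name no transgene or treatment. For each tissue 2 libraries were made, from whole dissected testis, from mature oocytes squeezed from females (eggs), and from whole dissected ovary, which itself contains oocytes along with other cells. Whether the 2 libraries of a tissue are from separate animals is not said in the labels, so the p-values below measure the spread between these libraries, which may be technical. The values are FPKM, fragments per kilobase of transcript on the authors' scale for library size. Read numbers are not given in the sources used here, so no counting error is given.

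Germ plasm is a store of RNA and protein in the egg that is handed to a few cells of the embryo and makes them primordial germ cells. In zebrafish it gathers in the young oocyte around the protein Bucky ball and is carried by the egg. Most of its known components bind RNA, and many of them also act later, in the germ cells of the adult gonads. Ddx4, also called Vasa, is a DEAD-box RNA helicase of germ granules. Dazl is an RNA-binding protein that promotes translation of germ cell messages. Nanos3 is a zinc-finger protein that represses translation together with Pumilio proteins, and zebrafish females need it to keep making oocytes. Dnd1 binds the 3′ ends of messages and shields them from repression by microRNAs in primordial germ cells. Carbonic anhydrases interconvert carbon dioxide and bicarbonate.

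The tissue labels were compared with marker genes. The 3 egg markers found in the table (bouncer, gdf9 and bmp15) summed to 2.36 to 2.55 FPKM in testis, 728 to 1309 FPKM in oocyte and 567 to 744 FPKM in ovary. Most of the oocyte sum was bouncer, at 1234 and 652 FPKM. gdf9 was lower in oocyte, at 7.75 and 11.4 FPKM, than in ovary, at 18.5 and 15.4 FPKM. The 3 Sertoli cell markers (amh, gsdf and dmrt1) summed to 1246 to 1373 FPKM in testis, 4.28 to 5.23 FPKM in oocyte and 13.5 to 28.2 FPKM in ovary. Most of the testis sum was gsdf, at 1217 and 1346 FPKM, and amh and dmrt1 were also highest in testis. Both sperm and spermatid markers found, tekt1 and dnah9, were high in testis, at a sum of 69.6 to 83.9 FPKM, against at most 0.324 FPKM in oocyte and 0.47 FPKM in ovary. Of the granulosa and theca markers only lhcgr and fshr were found by symbol. They summed to 0.8 and 0.571 FPKM in testis, 0.0144 and 0.00305 FPKM in oocyte, and 0.0619 and 0.155 FPKM in ovary. Both were thus near 0 in ovary and higher in testis, so they did not serve as markers of follicle cells in these libraries. The 4 Leydig cell markers summed to 1016 to 1943 FPKM in testis, 23.1 to 36.6 FPKM in oocyte and 13 to 20.4 FPKM in ovary. Most of the testis sum was insl3, at 976 and 1899 FPKM, and star and hsd3b1 were also highest in testis. cyp17a1 was not, with 10 and 9.61 FPKM in testis, 31.5 and 19.9 FPKM in oocyte, and 8.77 and 14.5 FPKM in ovary. The 4 stroma and vessel markers summed to 24.7 to 26.4, 5.33 to 17.9 and 3.25 to 6.32 FPKM in the same order of tissues. The 3 blood markers summed to 19.3 to 78.9 FPKM in testis, 0.308 to 0.481 FPKM in oocyte and 2.99 to 5.03 FPKM in ovary. Their part in the differences of testis below was not tested.

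The most even gene between replicates in testis was ddx4. It had 70.8 and 69 FPKM in testis, 32.3 and 40 FPKM in oocyte, and 21.2 and 19.8 FPKM in ovary. The helicase was highest in testis and lowest in ovary, and no library of a tissue overlapped with one of another tissue. Such separation was common, at 89.3% of tested features between testis and ovary, 90.3% between testis and oocyte and 81.7% between oocyte and ovary. The means were 69.9 ± 1.27 FPKM in testis, 36.2 ± 5.45 FPKM in oocyte and 20.5 ± 1.01 FPKM in ovary (SD, n = 2 each). In the testis libraries it was rank 435 and 533 among all features, so only 1.57% and 1.97% of the features above 0 were higher. In oocyte and ovary, 10.1% to 13.4% were higher.

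On the authors' scale, the level of dazl was highest in the egg. It had 68.2 and 118 FPKM in testis, 159 and 239 FPKM in oocyte, and 57.9 and 33.1 FPKM in ovary. Both oocyte libraries lay above both testis libraries, and both testis libraries lay above both ovary libraries, but testis replicate 1 and ovary replicate 1 were close. Of the features above 0, 1.64% and 1.32% were higher than dazl in testis and 2.45% and 1.59% in oocyte. By this share testis and oocyte overlapped. In ovary 4.77% and 8.72% were higher. The means were 92.8 ± 34.9 FPKM in testis, 199 ± 56.3 FPKM in oocyte and 45.5 ± 17.5 FPKM in ovary (SD, n = 2 each). Of the 5 genes, dazl had the widest gap between replicates in every tissue, at 1.72 times in testis, 1.5 times in oocyte and 1.75 times in ovary. In ovary, 5.36% of the features within 0.5 log2 units of its level differed more between replicates than dazl did, and in testis 15.2% did. In testis, dazl rose by 0.777 log2 units from replicate 1 to replicate 2, and features near its level by a median of 0.338. Of the Leydig cell markers, insl3 (1899 against 976 FPKM in replicate 1) and hsd3b1 (12.75 against 8 FPKM) were higher in replicate 2. star was level (22 against 21.9 FPKM), and cyp17a1 was slightly lower (9.61 against 10 FPKM). Of the blood markers, hbaa1 (73.9 against 16.4 FPKM) and lyz (4.5 against 2.3 FPKM) were higher and ptprc was lower (0.485 against 0.567 FPKM). The part of these genes in the spread of dazl was not tested.

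The ovary and the egg carried nanos3, and the testis very little. It had 0.533 and 0.428 FPKM in testis, 21.8 and 25 FPKM in oocyte, and 42.6 and 47.3 FPKM in ovary. Every oocyte and ovary library was far above both testis libraries, and both ovary libraries were above both oocyte libraries. The means were 0.481 ± 0.0743 FPKM in testis, 23.4 ± 2.3 FPKM in oocyte and 44.9 ± 3.32 FPKM in ovary (SD, n = 2 each). The mean in ovary was 93.5 times that in testis, and the mean in oocyte 48.7 times. In testis nanos3 stood at rank 13512 and 13539, with 49% and 50% of the features above 0 higher, whereas 13.9% to 14.4% were higher in oocyte and 6.27% to 6.56% in ovary.

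The added gene dnd1 was found in every tissue. It had 12.5 and 16.7 FPKM in testis, 31.9 and 43.7 FPKM in oocyte, and 45.8 and 43 FPKM in ovary. Testis was lowest in FPKM, and the oocyte and ovary libraries overlapped. Of the features above 0, 8.03% and 6.73% were higher in testis, 11% and 9.28% in oocyte, and 6.03% and 6.77% in ovary. By this share testis was not lowest. The number of features above 0 differs between libraries. By rank among all features, testis (2218 and 1821) overlapped oocyte (2470 and 2085). The means were 14.6 ± 3 FPKM in testis, 37.8 ± 8.39 FPKM in oocyte and 44.4 ± 1.98 FPKM in ovary (SD, n = 2 each).

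The carbonic anhydrase gene ca7 had its highest level in the egg. It had 1.79 and 1.42 FPKM in testis, 98 and 115 FPKM in oocyte, and 25.4 and 23.4 FPKM in ovary. The 3 tissues did not overlap. The means were 1.6 ± 0.262 FPKM in testis, 107 ± 12.1 FPKM in oocyte and 24.4 ± 1.36 FPKM in ovary (SD, n = 2 each). By means, its order of tissues was that of none of the other 4 genes. However, dnd1 was also lowest in testis, and its oocyte and ovary libraries overlapped, so its order was not resolved. dazl, also highest in the egg, was lowest in ovary and not in testis.

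**Figure D1:**
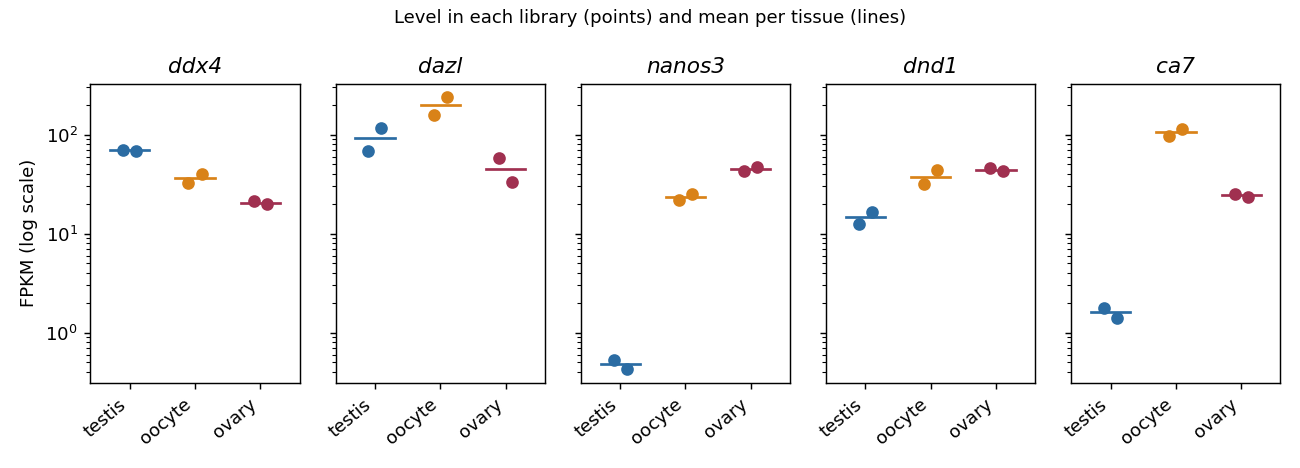
FPKM of the 5 genes in each of the 6 libraries, on a log axis, with a point per library and a line at the mean of each tissue. On the authors' scale, the highest tissue is testis for ddx4, oocyte for dazl and ca7, and ovary for nanos3. Testis is lowest for dnd1, whose oocyte and ovary libraries overlap. nanos3 has the widest range, with 0.428 to 0.533 FPKM in testis and 42.6 to 47.3 FPKM in ovary.

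Ratios between genes of the same library are not changed by a scaling factor applied to the whole library, although quantile normalization can change them. Of the summed FPKM of ddx4, dazl, nanos3 and dnd1, nanos3 made up 0.351% and 0.21% in testis, 8.9% and 7.21% in oocyte, and 25.4% and 33% in ovary. The share of ddx4 was 46.6% and 33.9% in testis, 13.2% and 11.5% in oocyte, and 12.7% and 13.8% in ovary. Thus ddx4 and dazl together made up most of the sum in testis, dazl alone did so in oocyte at 64.9% and 68.7%, and in ovary the 4 transcripts were closer in level. The dnd1 share was 8.23% and 8.22% in testis, 13% and 12.6% in oocyte, and 27.4% and 30.1% in ovary.

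The order of the genes within a library shifted with them. In testis, ddx4 was 133 and 161 times the level of nanos3, against 1.48 and 1.6 times in oocyte and 0.498 and 0.418 times in ovary. The ratio of dazl to ddx4 was 0.963 and 1.7 in testis, 4.93 and 5.97 in oocyte, and 2.73 and 1.67 in ovary, so oocyte stood above the other tissues, while testis replicate 2 exceeded ovary replicate 2. The ratio of dnd1 to nanos3 was 23.4 and 39.1 in testis, 1.46 and 1.75 in oocyte, and 1.08 and 0.91 in ovary. These ratios are given as values, without a test.

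**Figure D2:**
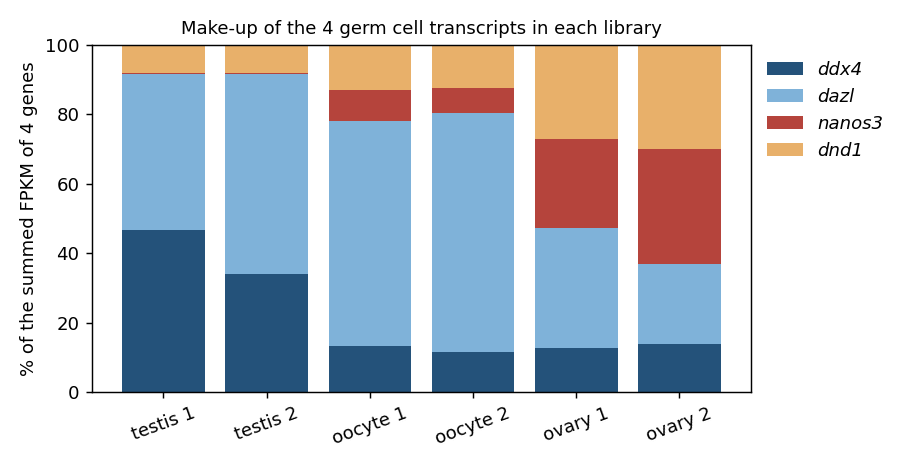
Share of each of 4 germ cell transcripts in their summed FPKM, with a stacked bar for each of the 6 libraries. nanos3 is at 0.21% to 0.351% in testis, 7.21% to 8.9% in oocyte and 25.4% to 33% in ovary.

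The testis was compared with the ovary, organs that both hold germ cells and somatic cells. A limma model of log2(FPKM + 1) was fitted to the 13717 features with at least 1 FPKM in at least 2 libraries, and p-values were adjusted over all of them by the Benjamini-Hochberg method. A feature was called when its adjusted p-value was under 0.05 and its values differed by 1 log2 unit or more. That unit is 2-fold in FPKM + 1, and for low values it understates the ratio of FPKM itself. All 5 genes passed this filter, nanos3 only through its oocyte and ovary libraries. The rule called 60.2% of all tested features in this comparison, 16.4% as higher and 43.8% as lower in testis, so a call by itself does not set these genes apart. Of the 4 genes chosen by ID, 3 were called. ddx4 rose by 1.72 on the log2 scale in testis (SE 0.183; limma adjusted p = 0.000274), and 9.56% of tested features had a higher difference. nanos3 fell by 4.95 (SE 0.176, limma adjusted p = 1.04e-05), with only 1.41% of features lower, and ca7 fell by 3.29 (SE 0.182, limma adjusted p = 3.06e-05). The added gene dnd1 fell by 1.55 (SE 0.233, limma adjusted p = 0.00119). For dazl the log2 difference was 1.01 (SE 0.397, 95% interval 0.05 to 1.98, limma adjusted p = 0.0561), and it was not called. In whole organs, fewer cells that carry a transcript and less of it per cell cannot be told apart.

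Scaling mattered for these differences, because the median of all tested features was itself at -0.82 in this comparison. Under median-of-ratios scaling that median was -0.5, and 36% of the called features were higher in testis, against 27.2% on the deposited scale. Under quantile normalization the median was -0.21 and 47.6% of calls were higher, and after rescaling without the 25 features above 10000 FPKM they were -0.14 and 48.4%, over the 16373 features that then passed the filter. dazl was then called as higher in testis, at a log2 difference of 1.48 with median-of-ratios scaling, 2.08 with quantile normalization and 1.71 after that rescaling. dnd1 was no longer called under quantile normalization, at -0.46, or after that rescaling, at -0.91. The calls of ddx4, nanos3 and ca7 held in 16 of 16 alternatives. Several of these, such as another filter or library weights, can change the p-value but not the size of a difference. Without testis replicate 2 or ovary replicate 2 the difference of dazl was 0.63 and 0.62, and without ovary replicate 1 it was called, at 1.41 (limma adjusted p = 0.0368, in a range of 0.00369 to 0.295 over the 16 alternatives).

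The testis was then set against the mature egg. Here 67.9% of tested features were called, 22.3% higher and 45.6% lower in testis, and the median difference was -0.79. Higher calls made up 32.8% of the calls on the deposited scale, against 47.6% under quantile normalization and 48.4% after rescaling without features above 10000 FPKM. In testis nanos3 fell by 4.04 (SE 0.176, limma adjusted p = 1.09e-05) and ca7 fell by 5.37 (SE 0.182, limma adjusted p = 9.28e-06). For ca7, only 1.25% of tested features were lower. dnd1 fell by 1.31 (SE 0.233, limma adjusted p = 0.00219) and dazl fell by 1.11 (SE 0.397, limma adjusted p = 0.0387). Relative to the median of all features, both lay near the middle, with 59.9% of features above dnd1 and 56% above dazl. ddx4 was 1.93 times as high in testis, or 0.94 on the log2 scale (SE 0.183, limma adjusted p = 0.00329), which is under the 2-fold minimum.

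In this comparison the place of dazl, dnd1 and ddx4 turned on the scaling. The difference of dazl was -0.68 under median-of-ratios scaling and 0.19 under quantile normalization, with limma adjusted p = 0.193 and 0.679, in a range of 0.0334 to 0.679 over the 16 alternatives. Its adjusted p was 0.0573 with the replicate number as a block, which ended the call, and it was -0.73 without testis replicate 1 and -0.82 without oocyte replicate 2. The difference of dnd1 was -0.90 under median-of-ratios scaling and 0.20 under quantile normalization. ddx4 passed the 2-fold minimum as higher in testis under median-of-ratios scaling, at 1.37, and quantile normalization, at 2.48, and without oocyte replicate 2, at 1.09. nanos3 and ca7 were called lower in testis in 16 of 16 alternatives.

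The oocyte was set against the ovary, a comparison of the ripe egg with an organ that holds oocytes of every stage. Of all tested features 49% were called, 26.8% higher and 22.2% lower in oocyte, with a median difference of 0.02. Of the 4 genes chosen by ID, 2 were called, dazl and ca7. dazl rose in oocyte by 2.13 (SE 0.397, limma adjusted p = 0.004) and ca7 by 2.08 (SE 0.182, limma adjusted p = 0.000269), with 7.51% and 8.11% of tested features higher. The mean of dazl in oocyte was 4.38 times that in ovary, and the mean of ca7 was 4.37 times. ddx4 differed by 0.78 (SE 0.183, limma adjusted p = 0.00996) and nanos3 by -0.91 (SE 0.176, limma adjusted p = 0.00457), both past the adjusted p-value but under the 2-fold minimum. The mean of nanos3 in oocyte was 0.521 times that in ovary. For dnd1 the difference was -0.25 (SE 0.233, 95% interval -0.81 to 0.32, limma adjusted p = 0.403), so a decrease or an increase inside that interval was not resolved. The nanos3 difference crossed the 2-fold minimum under quantile normalization, at -1.24, and without oocyte replicate 2, at -1.01. Under quantile normalization ddx4 was at 0.438 (limma adjusted p = 0.0942) and dnd1 at -0.666 (limma adjusted p = 0.0307), both under that minimum. The calls of dazl and ca7 held in 16 of 16 alternatives.

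**Figure D3:**
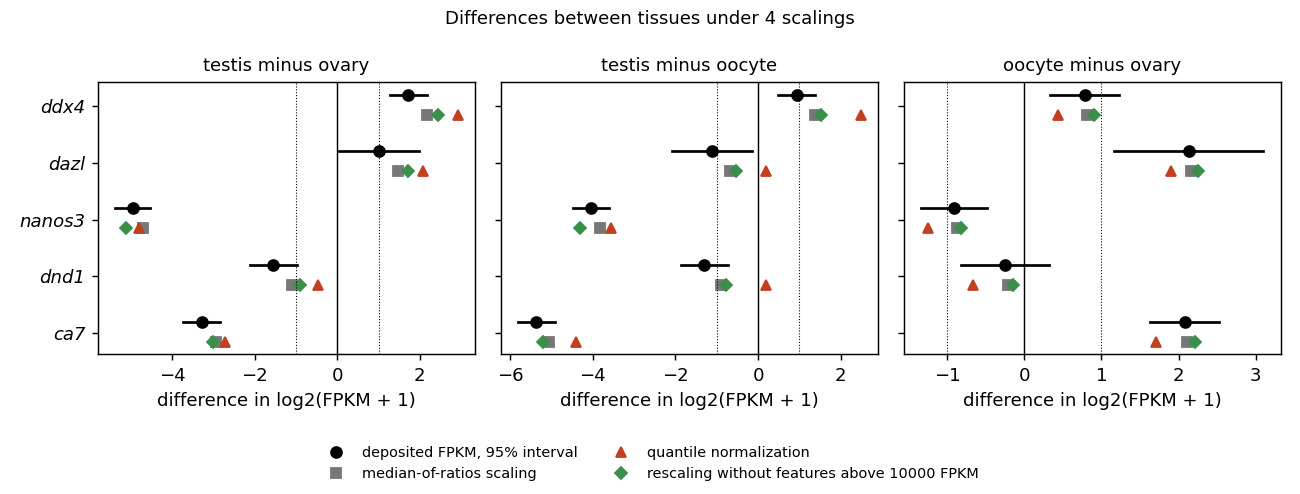
Differences in log2(FPKM + 1) between tissues for the 5 genes, with the 95% interval of the limma fit on the deposited scale in black and the same difference under 3 other scalings below it. Dotted lines mark the 2-fold minimum. nanos3 and ca7 stay far to the left in both testis panels, while dazl and dnd1 cross 0 between testis and oocyte under quantile normalization.

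Other genes of germ plasm and germ granules gave a frame for these patterns. Of 22 listed symbols, 15 were matched and tested. Between testis and ovary, 3 rose and 8 fell in testis, and 4 were not called, with a median of -1.05, against -0.82 over all tested features, of which 16.4% rose and 43.8% fell. The largest differences were those of zar1 at -8.67, ca15b at -7.02, zar1l at -6.64 and buc at -6.61, each with limma adjusted p = 1.67e-05 or less. ca15b had 0.279 and 0.218 FPKM in testis, and igf2bp3, which also fell, had 0.3225 and 0.311 FPKM. Like nanos3, both passed the filter only through their oocyte and ovary libraries. buc encodes Bucky ball, the organiser of germ plasm, and had 1.61 and 1.26 FPKM in testis, 112 and 87.3 FPKM in oocyte, and 309 and 182 FPKM in ovary. In testis, ddx4 and dazl were thus far above buc in level per length. The 3 that rose in testis were piwil1 at 2.83, gra at 1.33 and tdrd7a at 1.27. piwil1 encodes a Piwi protein of the pathway that silences transposons, and tdrd7a a Tudor protein of germ granules. Under the 3 other scalings 4 to 6 of the 15 rose and 6 to 7 fell, and these 7 genes kept their calls, while the median was -0.61 to 0.09. The background moved too, to a median of -0.5 to -0.14. Of all 13717 tested features, 2725 rose and 4837 fell with median-of-ratios scaling, and 3483 rose and 3835 fell with quantile normalization. After the rescaling 4512 of 16373 rose and 4813 fell.

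Against oocyte, 2 of the 15 rose in testis, 7 fell and 6 were not called, with a median of -0.21, while 22.3% of all tested features rose and 45.6% fell, with a median of -0.79. The largest differences were those of zar1l at -7.09, ca15b at -6.44, buc at -5.36 and hook2 at -5.12. Under the other scalings these 4 were called lower too, while 4 to 6 genes rose and 7 fell, and the median was 0.23 to 0.62. The background median was then -0.52 to -0.13. Of all 13717 tested features, 3590 rose and 5531 fell with median-of-ratios scaling, and 4231 rose and 4657 fell with quantile normalization. After the rescaling 5419 of 16373 rose and 5779 fell. Between oocyte and ovary, 3 rose and 3 fell in oocyte and 9 were not called, with a median of 0.20, while 49% of all tested features were called, with a median of 0.02. zar1, a translational regulator of the oocyte, fell by 6.67 in oocyte (limma adjusted p = 4.57e-05), with 11.3 and 9.06 FPKM in oocyte, against 1102 and 1172 FPKM in ovary, and tdrd5 fell by 2.27. hook2 rose by 2.22 and celf1, an RNA-binding protein, rose by 1.67. zar1l, the relative of zar1, was not called, at 0.45, except under quantile normalization, at 1.19.

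**Figure D4:**
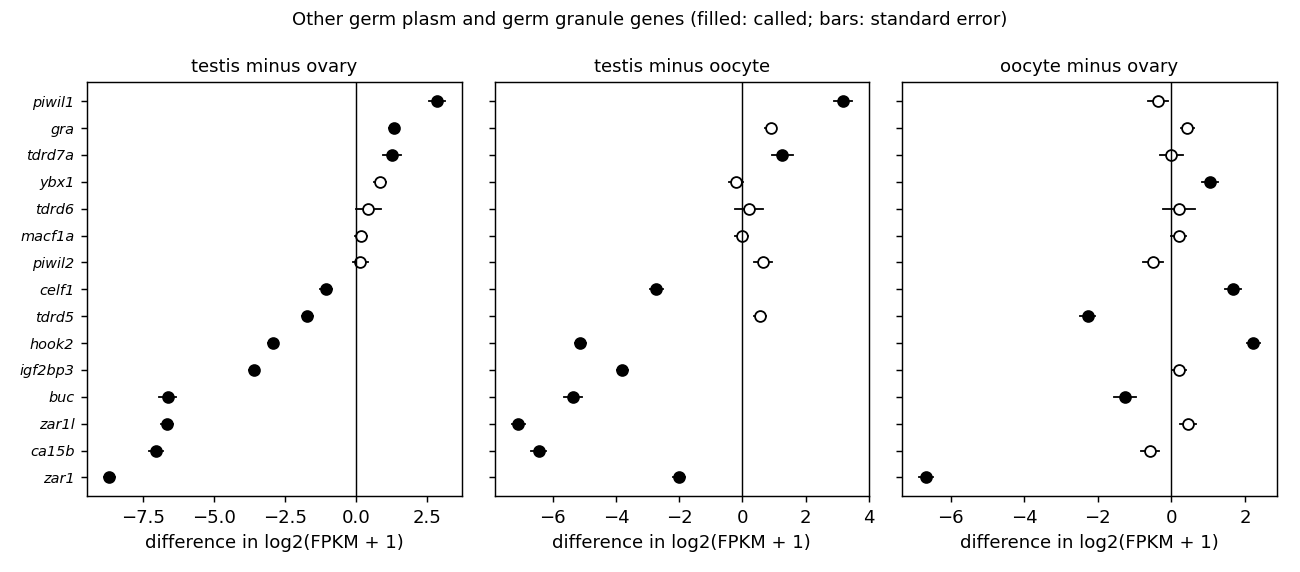
Differences in log2(FPKM + 1) of the 15 other germ plasm and germ granule genes in the 3 comparisons, ordered by testis minus ovary; filled points were called and bars are the standard error. buc, ca15b, zar1 and zar1l lie lowest against ovary, at -6.61 to -8.67, and piwil1 lies highest, at 2.83.

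A further list held 21 symbols, of the piRNA pathway that guards germ cells against transposons, of Tudor proteins, and of RNA regulators such as Pumilio and deadenylase subunits, and 18 were tested. Between testis and ovary, 3 rose in testis, 4 fell and 11 were not called, with a median of -0.39, or -0.04 to 0.51 under the 3 other scalings. Over all tested features 60.2% were called in that comparison, and the median was -0.82, or -0.5 to -0.14 under the other scalings. The largest differences were those of asz1 at -2.16, pld6 at 2.03, gtsf1 at -1.91 and henmt1 at -1.67. Of these only pld6, an enzyme of piRNA making, was called under each of the other scalings, where asz1 was not called in any of the 3. Against oocyte, where the median was -0.46, or -0.07 to 0.66 under the other scalings, 4 rose in testis, 8 fell and 6 were not called, led by cnot7 at -2.99, tdrkh at -2.91, gtsf1 at -2.82 and tdrd9 at 2.81, and these 4 kept their calls under the other scalings. The background was 67.9% called, with a median of -0.79, or -0.52 to -0.13 under the other scalings. Between oocyte and ovary, where the median was 0.83, 7 rose in oocyte, 4 fell and 7 were not called, led by henmt1 at -3.15, tdrkh at 2.03, tdrd9 at -1.82 and tdrd15 at 1.79. These 4 also kept their calls under the other scalings. The background was 49% called, 26.8% higher and 22.2% lower in oocyte, with a median of 0.02.

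Likeness to each gene was measured as the Euclidean distance of log2(FPKM + 1) over the 6 libraries, across 13716 other tested features, and is given as a description. The nearest feature to ddx4 was gabarapb at a distance of 0.556, and to dazl it was DPY30 at 1.17. The nearest to nanos3 was 42sp43 at 0.666, with 0.34 and 0.221 FPKM in testis, 30 and 22.8 FPKM in oocyte, and 50.6 and 57.8 FPKM in ovary. 42sp43 is known from Xenopus as a component of a particle that stores RNA in young oocytes. For ca7 the nearest was KLHDC10 at 0.314, and for dnd1 it was RAB11B at 0.512. Among the described genes, ddx4 was rank 420 in nearness from dazl. From ddx4, dnd1 was rank 504, dazl rank 707 and nanos3 rank 6512. When each gene was first centred on its own mean, so that only the pattern over libraries counted, dazl was rank 3283 from ddx4, dnd1 rank 7443 and nanos3 rank 13410. From nanos3, dazl was rank 11754 of 13716, and ca7 was nearest among the other 4, at rank 1066, or 1409 after centring.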

How the data were processed

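RNA sequencing libraries from zebrafish testis, mature oocyte and ovary, 2 per tissue, were compared. Per the labels' protocols, TRIzol RNA was treated with DNase and made into strand-specific TruSeq libraries, read as pairs of 76 bases. The deposited values are FPKM per gene, made by the authors. TopHat, Bowtie2, Cuffnorm and the genome build GRCz10 are named in the submitters' processing notes; versions, annotation, scaling and the use of strand in counting are not given in the sources used here. Gene symbols came from a reference table that matched 26411 of 32253 IDs, and lists were matched by exact symbol. In the RefSeq annotation of another assembly, GRCz12tu, dazl overlaps pals2b, and ddx4 and dnd1 each overlap an uncharacterised locus, so reads shared with these cannot be told apart. No coordinates or sequences are given.

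FPKM was transformed to log2(FPKM + 1) and fitted with limma 3.58.1 in R 4.3.3 (a mean per tissue over all 6 libraries, 3 residual degrees of freedom, eBayes with trend=TRUE), two-sided, with adjustment over all 13717 tested features; the fit was tested on simulated data. Differences on this scale understate changes of low genes. Low values showed the steps of whole reads: in the replicate ratio of features under 0.02 FPKM, a bin of 0.02 log2 units held 242 of 2606 features in testis, 358 of 2276 in oocyte and 356 of 2386 in ovary, at log2 ratios of replicate 2 over replicate 1 of 0.35, -0.25 and 0.43. These give only the relative scale of replicates, so absolute depth is unknown. Summed FPKM ranged from 7062000 to 178200000, so sums over all features were not used for scaling. The rescaling without the 25 features above 10000 FPKM set the sum of the remaining features to 1000000 in each library.

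The genes, the lists and the rule for naming (all genes of the set in every comparison, the nearest feature to each, and the 4 largest differences of each list with an adjusted p-value under 0.05) were chosen with earlier results of these data known; piwil1, gra, tdrd7a, and the oocyte to ovary value of zar1l, were named after their values were seen. A planned limma test of ratios between genes was not used, because subtracting a gene gives every feature that gene's replicate error; ratios are given as values. Alternatives covered the pseudocount, filter, scaling, variance moderation, replicate block, samples fitted, library weights and each library left out.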

Additional observations from a re-analysis of the deposited data

How the results depend on the processing

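Of 240 combinations of a gene difference and an alternative, 214 had the reported direction and side of the threshold. For dazl between testis and ovary, the difference became a call with a pseudocount of 0.1 (1.03), the 5 FPKM filter (1.01), array weights (1.01), median-of-ratios scaling (1.48), quantile normalization (2.08) and rescaling without features above 10000 FPKM (1.71); between testis and oocyte its call was lost with no filter, the replicate block and array weights (each -1.11), median-of-ratios scaling (-0.68) and the rescaling (-0.54), and it reversed under quantile normalization (0.19). For dnd1 the call between testis and ovary was lost under quantile normalization (-0.46) and the rescaling (-0.91), and that between testis and oocyte under median-of-ratios scaling (-0.90) and the rescaling (-0.77), with a reversal under quantile normalization (0.20). ddx4 between testis and oocyte became a call under median-of-ratios scaling (1.37), quantile normalization (2.48) and the rescaling (1.53), and nanos3 between oocyte and ovary did under quantile normalization (-1.24). With a pseudocount of 0.1, the log2 ratio of nanos3 to ddx4 moved to -8.05 between testis and ovary and to -6.3 between testis and oocyte. The cause was not tested.

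With 1 library left out (the lone library is assumed to vary like the others), dazl ranged from 0.62 to 1.41 between testis and ovary and from -1.5 to -0.73 between testis and oocyte, ddx4 from 0.79 to 1.09 between testis and oocyte, and nanos3 from -1.01 to -0.82 between oocyte and ovary. dazl between testis and ovary became a call without ovary replicate 1 (1.41), and ddx4 (1.09) and nanos3 (-1.01) in those comparisons did without oocyte replicate 2; dazl between testis and oocyte lost its call without testis replicate 1 or oocyte replicate 2. The log2 ratio of nanos3 to ddx4 ranged from -6.8 to -6.55 for testis against ovary and from -1.82 to -1.57 for oocyte against ovary, and that of dnd1 to ddx4 from -3.49 to -3.06 for testis against ovary and from -2.46 to -2.03 for testis against oocyte.

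The 2251 calls higher in testis than in ovary became 3483 under quantile normalization, 4512 after the rescaling and 1168 with the 5 FPKM filter, and the 6011 lower ones became 3835 under quantile normalization. The 3056 calls higher in testis than in oocyte became 5419 after the rescaling and 1785 with the filter. Under quantile normalization 6 germ plasm list genes rose in testis against ovary (3 as deposited) and 6 against oocyte (2), and 6 piRNA list genes rose and 0 fell against ovary (3 and 4). Of all 13717 tested features, 3483 then rose and 3835 fell in testis against ovary, and 4231 rose and 4657 fell against oocyte. Equal replicate numbers share only a number: the correlation of replicate differences across features was -0.346 for oocyte and ovary, 0.243 for testis and ovary, and -0.214 for testis and oocyte. The replicate block called 8217 features between testis and ovary, 9273 between testis and oocyte and 6679 between oocyte and ovary, against 8262, 9311 and 6716 without it; with the oocyte numbers crossed, chosen after the data were seen, it called 8365, 9386 and 6819. The unknown depth limits low values, such as nanos3 in testis.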
